A study of Mus musculus with 12 samples.

Results

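A set of 10 genes that mark successive steps of the oligodendrocyte lineage were followed in RNA of the substantia nigra pars compacta (SNpc): Pdgfra and Cspg4, a receptor and a proteoglycan of oligodendrocyte precursors, C1ql1, a protein secreted by them, Olig1, Olig2, Sox10 and Nkx2-2, transcription factors of the lineage, and Gpr17, Bcas1 and Enpp6, which mark committed precursors and newly formed oligodendrocytes. The 10 genes and the other lists below were chosen with earlier results of these data known. All 10 genes were found in the files and passed the filter on low counts, among 18017 genes tested and 54193 genes with transcripts in the files. The SNpc of male mice at 1 week of age was collected by laser capture microdissection after cresyl violet staining, and each library came from 1 mouse. The 4 groups of 3 mice were OF1-En1+/- (SW21, SW22 and SWB), OF1 WT (SW31, SW7 and SWG), C57-En1+/- (C5713, C572 and C575) and C57 WT (C5710, C572S and C5743). OF1 is the SwissOF1 stock and C57 is C57Bl/6J. In the hemizygous mice lacZ is inserted into 1 copy of En1, a homeobox gene of midbrain dopaminergic neurons, and makes it a null allele. The C57-En1+/- line came from the OF1-En1+/- line by repeated backcrossing. The design asks how the genotype and the strain, alone and in combination, alter RNA levels before neurons are lost.

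Oligodendrocyte precursors divide under PDGF-A, which their receptor PDGFRA binds, and they persist throughout the brain. Some leave the cycle, lose PDGFRA and NG2 (the product of Cspg4), pass through a short stage with GPR17, BCAS1 and ENPP6, and then make myelin. OLIG2 and SOX10 are present from precursor to mature cell. In the mouse midbrain this maturation is under way in the first weeks after birth, so a dissected tissue holds all stages together.

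The libraries held 13538864 to 168741283 estimated reads, and the 3 C57 WT libraries (61433970 to 168741283) were deeper than the other 9 (13538864 to 37754338). Values below are normalized counts, that is estimated reads of a gene scaled to a common library size with TMM factors, unless they are given as TPM, the transcript abundance measure of Salmon, which also accounts for transcript length. Mice C572, SW22 and C572S stood apart. C57-En1+/- mouse C572 had a normalized count of 1330.5 for Xist, against at most 34.9 in the other 11 mice, and 0 for the Y-linked Ddx3y, although it is labelled male. SW22 of the OF1-En1+/- and C572S of the C57 WT group held abundant transcripts of dopaminergic neurons, with Th at 85968 and 121821, against 8.80 to 1447 in the other 10 mice. Slc6a3 had 205403 and 350647 in SW22 and C572S, against 4.18 to 3229.8 in the other 10 mice. These 10 libraries, also collected as SNpc, thus held far fewer dopaminergic transcripts, and how much SNpc each contained was not tested. En1 was also high in SW22 and C572S (691 and 1071, against at most 15.2 elsewhere). It did not follow the labelled genotypes, so it gave no check of them. Fits were therefore repeated without C572 and without SW22 and C572S. Every group expressed both the precursor genes and the myelin genes, none of the oligodendrocyte markers was at 0 in a whole group, and in bulk tissue fewer cells of a type and less RNA per cell cannot be told apart.

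Per transcript length, Olig1 had the highest mean level of the 10 genes (62.0 TPM over 12 libraries, 40.5 to 82.2), followed by Bcas1 (50.1 TPM) and Gpr17 (29.3 TPM). Pdgfra averaged 12.9 TPM, Nkx2-2 7.50 TPM, Enpp6 6.70 TPM, Sox10 5.83 TPM and Cspg4 5.52 TPM. Olig2 (3.02 TPM) and C1ql1 (2.64 TPM) were lowest. The neighbours Bcas1 and Olig1 overlapped widely, since Bcas1 ranged from 22.2 to 97.2 TPM, and the ranges of the 5 genes from Pdgfra to Cspg4 in this order overlapped as well. Genes of committed precursors and C1ql1 spread more over the libraries than those of precursors and the transcription factors. The highest over the lowest normalized count was 34.5-fold for Enpp6, 15.4-fold for C1ql1, 5.20-fold for Bcas1 and 4.47-fold for Gpr17, against 1.92-fold for Olig1, 2.08-fold for Cspg4 and 2.86-fold for Pdgfra. Olig2, Sox10 and Nkx2-2 lay at 3.38, 3.56 and 3.61-fold, and the median over 14181 genes with a mean count of at least 50 was 2.92-fold.

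**Figure D1:**
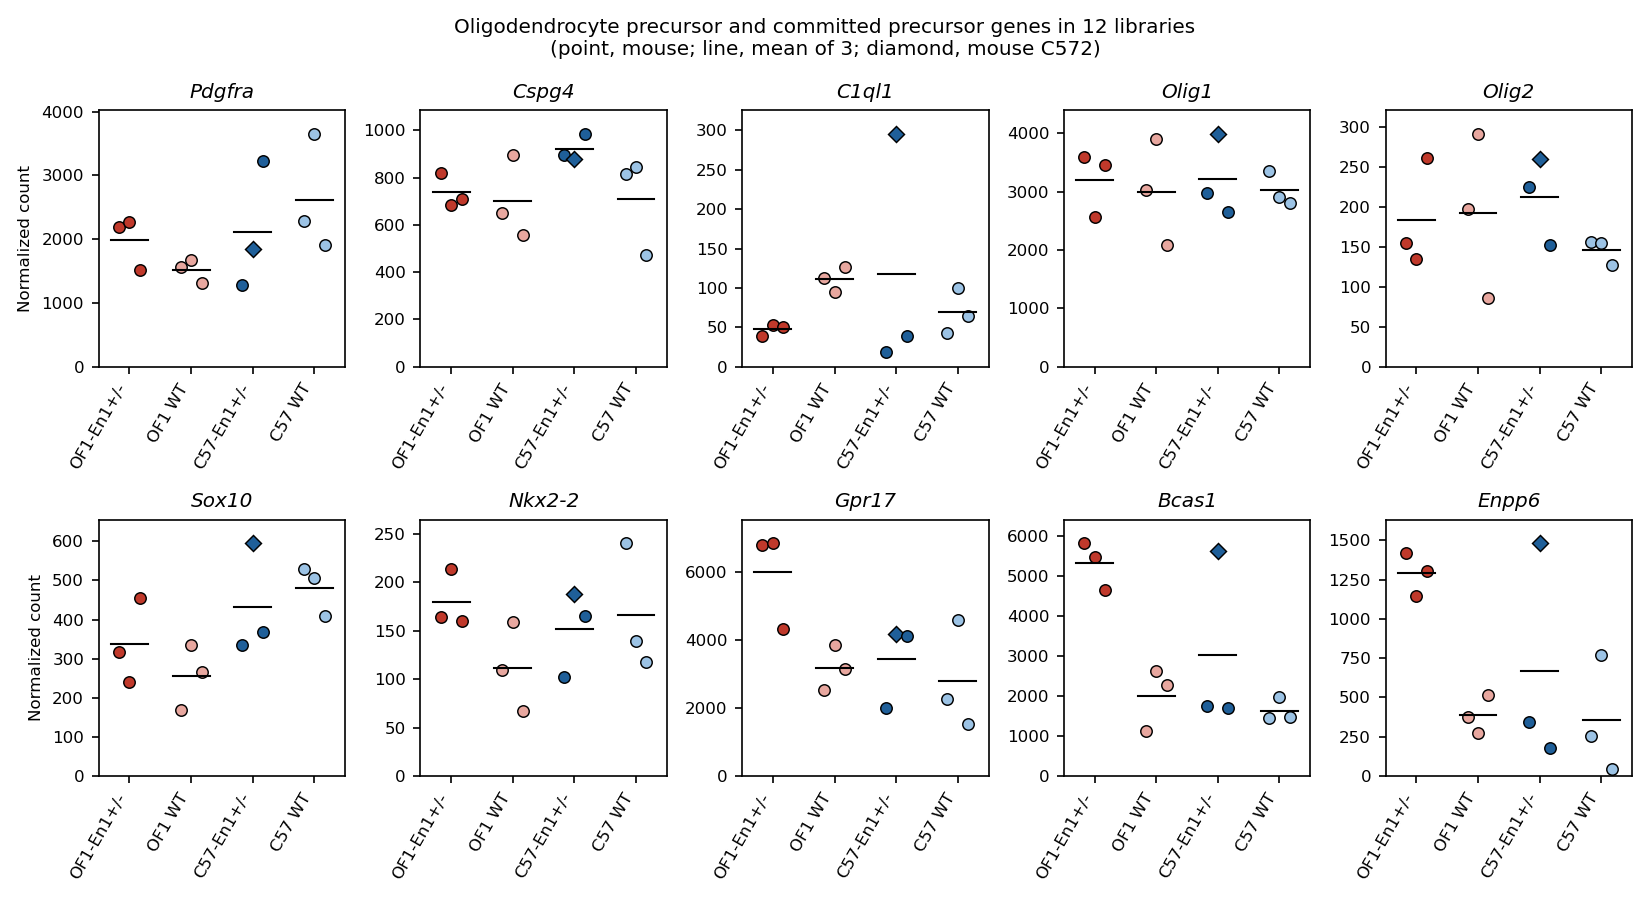
Normalized count (vertical axis, from 0) of each of the 10 genes in the 12 libraries, by group; a point is a mouse, the line is the mean of 3 mice and the diamond is mouse C572. Gpr17, Bcas1, Enpp6 and Nkx2-2 are higher in all 3 hemizygous than in all 3 WT mice of OF1 and C1ql1 is lower, while in C57-En1+/- mice the high Bcas1, Enpp6 and C1ql1 values are those of C572 alone.

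Bcas1 (ENSMUSG00000013523, minus strand of chromosome 2 from 170188911 to 170269765, GRCm39) encodes a protein of oligodendrocytes that begin to myelinate. It had normalized counts of 5829, 5467 and 4658 in OF1-En1+/- mice (SW21, SW22, SWB, the order used throughout), against 1121, 2619 and 2272 in OF1 WT mice (SW31, SW7, SWG). The groups did not overlap, and the lowest OF1-En1+/- mouse was well above the highest OF1 WT mouse. The log2 fold change was 1.41 ± 0.440 (SE), or 2.65-fold, which did not pass edgeR's quasi-likelihood test after Benjamini-Hochberg adjustment over all genes (edgeR adjusted p = 0.453) nor DESeq2 (adjusted p = 0.0799). In C57-En1+/- mice (C5713, C572, C575) it had 1762, 5618 and 1697, against 1454, 1965 and 1486 in C57 WT mice (C5710, C572S, C5743). Only C572 was high there, the log2 fold change of 0.89 ± 0.435 (edgeR adjusted p = 0.600) became 0.10 ± 0.309 without it, and the other 2 C57-En1+/- mice lay among the C57 WT mice. Over both strains, En1+/- against WT gave 1.15 ± 0.309 with edgeR (edgeR adjusted p = 0.330) and 1.18 ± 0.312 with DESeq2 (DESeq2 adjusted p = 0.0241). With all libraries, Bcas1 was the only one of the 10 genes that DESeq2 called in any comparison. Without C572 the DESeq2 estimate over both strains was 0.77 ± 0.224 (DESeq2 adjusted p = 0.0776).

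Without C572, whose Bcas1 count set the spread of its group, DESeq2 called Bcas1 higher in hemizygous than in WT mice of OF1 (1.42 ± 0.298, DESeq2 adjusted p = 0.00126) and higher in OF1-En1+/- than in the 2 remaining C57-En1+/- mice (1.63 ± 0.334, DESeq2 adjusted p = 0.000126). edgeR without C572 gave 1.40 ± 0.282 (adjusted p = 0.339) and 1.61 ± 0.328 (adjusted p = 0.0622) for the same comparisons. The DESeq2 fits without C572, or without SW22 and C572S, were added after the data had been seen. The genotype effect in OF1 minus that in C57 mice, the interaction, was 0.52 ± 0.611 with all libraries (edgeR adjusted p = 0.877). Without C572 it was 1.30 ± 0.421 (edgeR adjusted p = 0.686) and 1.29 ± 0.448 with DESeq2 (DESeq2 adjusted p = 0.245), so a difference between the strains in the genotype effect on Bcas1 did not pass either test, and its estimate rested on that mouse.

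The models ENSMUST00000013667, ENSMUST00000154650 and ENSMUST00000068137 carried most Bcas1 reads, and their shares are estimates that Salmon splits among overlapping models. The 2916-base model (the first) took 53.1 to 67.6% of the Bcas1 reads and the 2222-base model (the second) took 26.5 to 45.4%. The 2769-base model (the third) took 2.37, 1.49 and 3.74% in OF1-En1+/- mice, against 9.47, 9.44 and 17.6% in OF1 WT mice. In C57-En1+/- mice it took at most 1.01%, against 0 to 4.95% in C57 WT mice. The share was thus highest in the 3 OF1 WT mice, and no test was run on it.

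Enpp6 (ENSMUSG00000038173, plus strand of chromosome 8 from 47439919 to 47549797) encodes a choline-specific phosphodiesterase found on newly formed oligodendrocytes. Its normalized counts were 1422, 1149 and 1303 in OF1-En1+/- mice, against 373, 276 and 514 in OF1 WT mice, without overlap. The log2 fold change of 1.74 ± 0.902 (3.33-fold) was the largest of the 10 genes in this comparison and had an edgeR adjusted p of 0.589 and a DESeq2 adjusted p of 0.333. In C57-En1+/- mice the counts were 344, 1484 and 178, against 256, 768 and 43.0 in C57 WT mice. Both C57 groups held 1 high library, C572 and C572S, and the log2 fold change of 0.91 ± 0.882 turned to -0.42 ± 0.824 without C572 (edgeR adjusted p = 0.791 and 0.989). Without SW22 and C572S together, DESeq2 called Enpp6 over both strains (2.02 ± 0.575, DESeq2 adjusted p = 0.0243), against 1.36 ± 0.557 with all libraries (DESeq2 adjusted p = 0.213), while edgeR without them gave 1.99 ± 0.641 (adjusted p = 0.302). Without C572 the same estimate was smaller, 0.68 ± 0.514 with DESeq2 (DESeq2 adjusted p = 0.755) and 0.66 ± 0.544 with edgeR (edgeR adjusted p = 0.796).

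Gpr17 (ENSMUSG00000052229, minus strand of chromosome 18 from 32076050 to 32082888) encodes a G protein-coupled receptor that is switched on in committed precursors and lost before myelin is made. It had 6794, 6853 and 4319.8 in OF1-En1+/- mice, against 2515, 3850.0 and 3145 in OF1 WT mice. The groups did not overlap, although SWB and SW7 lay close, and the log2 fold change was 0.92 ± 0.394 (edgeR adjusted p = 0.530, DESeq2 adjusted p = 0.303). C57-En1+/- mice had 1994, 4189 and 4114, against 2265, 4579.8 and 1533 in C57 WT mice, which overlapped fully (0.30 ± 0.391, edgeR adjusted p = 0.859). Here C572 was not apart, since C575 had nearly as much. Gpr17 was also higher in all 3 OF1-En1+/- than in all 3 C57-En1+/- mice (0.80 ± 0.394, edgeR adjusted p = 0.671). The genotype effect in OF1 minus that in C57 was 0.62 ± 0.554 with all libraries and -0.05 ± 0.508 without SW22 and C572S (edgeR adjusted p = 0.837 and 1.000).

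Pdgfra (ENSMUSG00000029231, plus strand of chromosome 5 from 75311994 to 75358876) encodes the receptor that keeps precursors dividing, and is also expressed by fibroblasts of the meninges and vessels. It had 2192, 2265 and 1515 in OF1-En1+/- mice, against 1569, 1674 and 1310.0 in OF1 WT mice. The groups overlapped and the log2 fold change was 0.39 ± 0.334 (edgeR adjusted p = 0.759). C57-En1+/- mice had 1277, 1847 and 3231, against 2284, 3656 and 1916 in C57 WT mice (-0.31 ± 0.333, edgeR adjusted p = 0.825). The 3 OF1 WT mice were below the 3 C57 WT mice (-0.79 ± 0.335, edgeR adjusted p = 0.545). The summed count of 6 fibroblast markers ranged from 841 to 1428 in OF1-En1+/-, 341 to 1674 in OF1 WT, 906 to 3103 in C57-En1+/- and 109 to 2966 in C57 WT mice, with no marker at 0 in a whole group, and its part in Pdgfra was not tested. C572S, the library with the highest Pdgfra, had the lowest of these sums.

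Cspg4 (ENSMUSG00000032911, plus strand of chromosome 9 from 56772317 to 56807187) encodes the NG2 proteoglycan, which pericytes also carry. It had 820.4, 684 and 710.4 in OF1-En1+/- mice, against 649, 896 and 558 in OF1 WT mice, with overlap and a log2 fold change of 0.07 ± 0.262 (edgeR adjusted p = 0.959). C57-En1+/- mice had 895, 880.0 and 986, against 815, 844 and 474 in C57 WT mice. All 3 hemizygous C57 mice were above the WT mice (0.37 ± 0.262, edgeR adjusted p = 0.699). The summed count of 10 mural cell markers was 4446 to 6827 in C57-En1+/- mice, against 2759 to 3605 in C57 WT mice, also without overlap. In OF1 mice it was 4477 to 8266 in OF1-En1+/- mice, against 3411 to 5916 in OF1 WT mice, with overlap, where Cspg4 had a log2 fold change of 0.07. The part of these cells in Cspg4 was not tested. A retained-intron model, which cannot give the full protein, took 6.95 to 46.1% of the Cspg4 reads over the 12 libraries and the 8121-base coding model 52.3 to 91.4%. The lowest retained-intron share was that of C572.

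C1ql1 (ENSMUSG00000045532, minus strand of chromosome 11 from 102829755 to 102837610) encodes a secreted C1q-like protein of oligodendrocyte precursors that some neurons also make, among them those of the inferior olive. It was lower in the hemizygous OF1 mice, with 38.7, 53.5 and 50.7 in OF1-En1+/- mice, against 113, 94.7 and 127 in OF1 WT mice. These groups did not overlap, the log2 fold change was -1.23 ± 0.834 (edgeR adjusted p = 0.685, DESeq2 adjusted p = 0.646), and the values rested on 22 to 45 estimated reads per OF1-En1+/- library and 48 to 114 per OF1 WT library. In C57-En1+/- mice it had 19.2, 296 and 38.6, against 42.7, 100.0 and 64.8 in C57 WT mice. The fold change in C57 mice was 0.77 ± 0.815 with C572 and -1.23 ± 0.612 without it (edgeR adjusted p = 0.815 and 0.976). Over both strains it was -0.23 ± 0.578 with C572 and -1.23 ± 0.408 without it (edgeR adjusted p = 0.914 and 0.553). The genotype fold in OF1 was 0.250 times that in C57 mice (SE 1.17 on the log2 scale, edgeR adjusted p = 0.755), and the log2 of this ratio was 0.00 ± 0.651 without C572.

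Olig1 (ENSMUSG00000046160) and Olig2 (ENSMUSG00000039830) encode basic helix-loop-helix factors that set up the lineage, and lie on the plus strand of chromosome 16 from 91066660 to 91068821 and from 91019435 to 91025567, with 41093 bases between them. Olig1 had 3593, 2560.1 and 3454 in OF1-En1+/- mice, against 3025, 3897 and 2081 in OF1 WT mice. It had 2978, 3998 and 2657 in C57-En1+/- mice, against 3359, 2912 and 2808 in C57 WT mice. Groups overlapped in both strains, with log2 fold changes of 0.09 ± 0.245 in OF1 and 0.09 ± 0.245 in C57 mice. Olig2 had 155, 135 and 261 in OF1-En1+/- mice, against 198, 292 and 86.6 in OF1 WT mice (-0.06 ± 0.460). It had 225, 260.2 and 153 in C57-En1+/- mice, against 156, 155 and 127 in C57 WT mice (0.55 ± 0.459). The edgeR adjusted p of Olig1 and Olig2 was at least 0.748 in these comparisons.

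Sox10 (ENSMUSG00000033006, minus strand of chromosome 15 from 79039108 to 79049469), a high mobility group factor that drives myelin genes, had 317, 239.5 and 455 in OF1-En1+/- mice, against 168, 336 and 266 in OF1 WT mice (0.39 ± 0.354, edgeR adjusted p = 0.772). It had 336, 596 and 367 in C57-En1+/- mice, against 529, 506 and 409 in C57 WT mice (-0.15 ± 0.351, edgeR adjusted p = 0.932). Neither genotype comparison separated the groups. The 3 OF1 WT mice were below the 3 C57 WT mice (-0.90 ± 0.355, edgeR adjusted p = 0.476), and OF1 against C57 mice over both genotypes gave -0.63 ± 0.250 (edgeR adjusted p = 0.436). Nkx2-2 (ENSMUSG00000027434, minus strand of chromosome 2 from 147019466 to 147036163), a homeodomain factor that times differentiation, had 164, 214 and 159.9 in OF1-En1+/- mice, against 109, 159 and 66.6 in OF1 WT mice. These did not overlap but nearly touched at SWB and SW7 (0.68 ± 0.449, edgeR adjusted p = 0.673). It had 102, 188 and 165 in C57-En1+/- mice, against 240.4, 139 and 118 in C57 WT mice (-0.13 ± 0.443, edgeR adjusted p = 0.954).

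Promoter sequences, 250 bases before to 50 after the gene start, were taken from RefSeq (GRCm38.p6) for Pdgfra, Cspg4, Olig2, Nkx2-2 and Enpp6. Gpr17 was left out of this search, and the RefSeq promoters used held none for Bcas1, Olig1, Sox10 or C1ql1. The 5 promoters were searched on both strands for CTTTGT and CATTGT, short sites of Sox factors, and for CAGCTG and CATATG, E-boxes of basic helix-loop-helix factors, all distinct words. Of these 5, only Olig2 and Enpp6 held a match, each 1 CATTGT, a motif that 12.6% of 32851 promoters of this length hold (CTTTGT 18.7%, CAGCTG 16.3%, CATATG 3.91%). These are shown, since Enpp6 varied most of the 10 genes and Olig2 stands at the head of the lineage, in lower case with the match in capitals, which for Enpp6 is on the opposite strand and reads as ACAATG. Olig2 is at chr16:91225300-91225599 and Enpp6 at chr8:46986637-46986936, both on the plus strand. The Enpp6 window had 4 CpG pairs and that of Olig2 had 25.
Olig2: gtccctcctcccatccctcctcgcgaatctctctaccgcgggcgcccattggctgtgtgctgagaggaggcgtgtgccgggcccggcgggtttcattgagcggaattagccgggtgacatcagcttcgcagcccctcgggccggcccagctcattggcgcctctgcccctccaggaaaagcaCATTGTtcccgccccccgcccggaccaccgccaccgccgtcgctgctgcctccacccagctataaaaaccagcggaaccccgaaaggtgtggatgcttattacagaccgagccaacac
Enpp6: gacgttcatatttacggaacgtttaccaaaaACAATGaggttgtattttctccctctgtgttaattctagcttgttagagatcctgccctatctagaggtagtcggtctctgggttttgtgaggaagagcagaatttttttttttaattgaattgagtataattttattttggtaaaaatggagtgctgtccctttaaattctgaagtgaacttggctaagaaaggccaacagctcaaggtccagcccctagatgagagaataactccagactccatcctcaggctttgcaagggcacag
Pdgfra, Cspg4 and Nkx2-2 held none of the 4 motifs in their windows.

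In OF1-En1+/- against OF1 WT mice, 8 of the 10 genes had a positive and 2 a negative log2 fold change (median 0.39, against -0.02 over all tested genes). Nkx2-2, Gpr17, Bcas1 and Enpp6 were higher in all hemizygous than in all WT mice, 4 of 10 beside 7.68% of all genes, and C1ql1 was lower, 1 of 10 beside 8.04%. Gpr17 and Bcas1 had an unadjusted edgeR p under 0.05 and a positive change, 2 of 10 beside 4.61%. Neither edgeR nor DESeq2 called any of the 10 after adjustment, where they called 0% and 1.12% of all genes. The 3 genes of committed precursors moved together over the libraries, as given below, so these are not independent counts. All lists were chosen with earlier results known, so shares set beside those of all genes are descriptions and not tests.

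**Figure D2:**
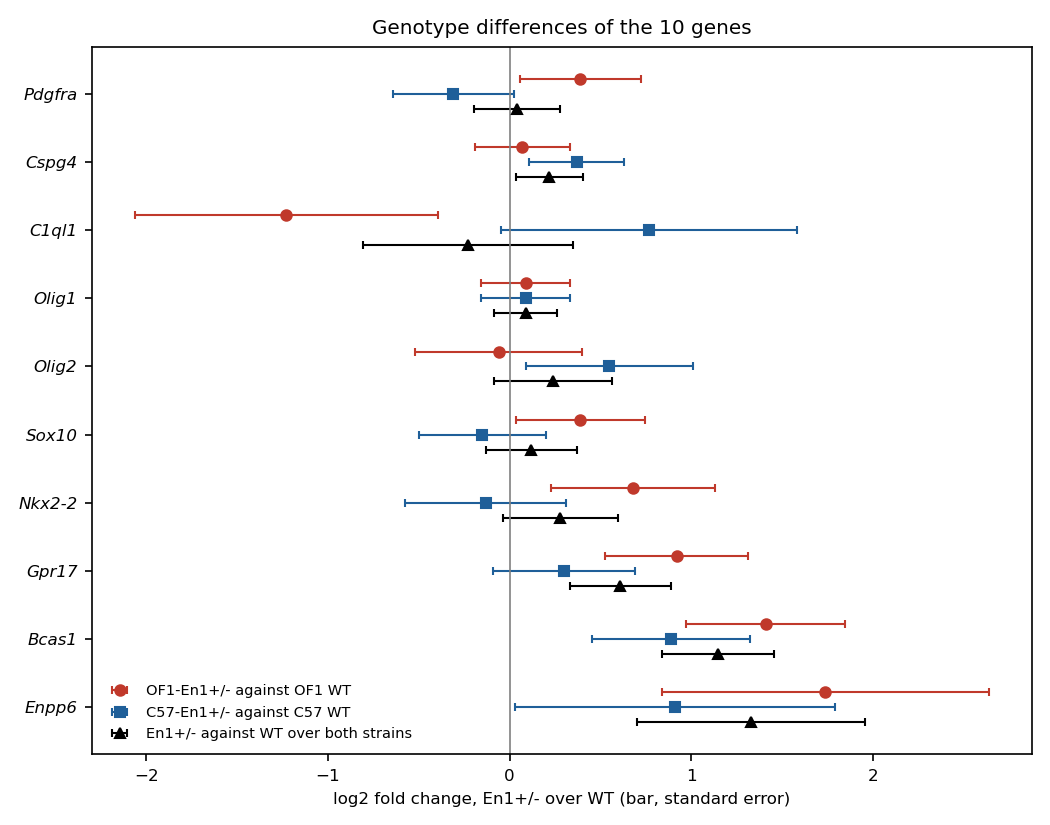
log2 fold change of En1+/- over WT mice (horizontal axis) for the 10 genes, in OF1 mice, in C57 mice and over both strains; bars are standard errors of the edgeR fit. Gpr17, Bcas1 and Enpp6 lie to the right of 0 in all 3 comparisons, from 0.30 for Gpr17 in C57 mice to 1.74 for Enpp6 in OF1 mice. C1ql1 lies on opposite sides of 0 in the 2 strains. In C57 mice Gpr17 (0.30 ± 0.391) and C1ql1 (0.77 ± 0.815) are smaller than their standard errors. Without C572, a fit not plotted, Enpp6 and C1ql1 in C57 mice were at -0.42 and -1.23.

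In C57-En1+/- against C57 WT mice, 7 of 10 fold changes were positive (median 0.34, against -0.05 over all genes). Without C572, edgeR gave -1.23 for C1ql1, -0.42 for Enpp6 and 0.10 for Bcas1, against 0.77, 0.91 and 0.89 with all libraries. Cspg4 and Pdgfra moved little, to 0.42 and -0.21 from 0.37 and -0.31. Cspg4 alone was higher without overlap (1 of 10 beside 6.20% of genes) and none was lower (beside 8.08%). edgeR called 0 and DESeq2 called 0 of the 10, where they called 0% and 0.411% of all genes, and none had an unadjusted edgeR p under 0.05. Over both strains, 9 of 10 fold changes were positive (median 0.23). Here too C572 mattered, since without it edgeR gave 0.66 for Enpp6 and -1.23 for C1ql1, against 1.33 and -0.23. Gpr17 and Bcas1 had an unadjusted edgeR p under 0.05, 2 of 10 beside 4.70% of genes. edgeR called 0 of the 10 and 0% of all genes, and DESeq2 called Bcas1, 1 of 10 beside 1.33%. The interaction was positive for 7 of 10 (median 0.53), with 0 of 10 called by edgeR, which called 0% of all genes, 0 of 10 by DESeq2, which called 0.233%, and 0 of 10 at an unadjusted edgeR p under 0.05.

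Between strains, OF1 WT against C57 WT mice gave 5 positive and 5 negative fold changes (median 0.06). Pdgfra and Sox10 were lower without overlap, 2 of 10 beside 8.57% of genes, and none was higher, beside 6.21%. edgeR called 1.03% and DESeq2 called 2.53% of all genes here and none of the 10, of which Pdgfra and Sox10 had an unadjusted edgeR p under 0.05. OF1-En1+/- against C57-En1+/- mice gave 4 positive and 6 negative fold changes (median -0.05). Gpr17 was higher (beside 6.49%) and Cspg4 lower (beside 6.75%) without overlap, and edgeR and DESeq2, which called 0.927% and 2.46% of all genes, called none of the 10, none of which had an unadjusted edgeR p under 0.05. Over both genotypes, OF1 against C57 gave a median of -0.09, and none of the 10 was among the 2.00% of genes that edgeR called or the 3.62% that DESeq2 called, with Sox10 alone at an unadjusted edgeR p under 0.05. Without C572, edgeR called Bcas1 higher in OF1 than in C57 mice over both genotypes (0.96 ± 0.212, edgeR adjusted p = 0.0479), as did DESeq2 (0.99 ± 0.224, DESeq2 adjusted p = 0.000510), against 0.55 ± 0.306 with all libraries (edgeR adjusted p = 0.725).

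The level of the committed precursor genes relative to that of the precursor genes was taken within each library as the summed TPM of Gpr17, Bcas1 and Enpp6 over that of Pdgfra and Cspg4. This ratio was 8.28, 8.50 and 8.42 in OF1-En1+/- mice, against 2.98, 4.52 and 6.08 in OF1 WT mice. It was 3.14, 9.16 and 2.27 in C57-En1+/- mice, against 2.33, 2.61 and 2.37 in C57 WT mice. The 3 OF1-En1+/- mice were nearly equal and above all OF1 WT mice (8.40 ± 0.113 against 4.53 ± 1.55, SD, n = 3 each), while in C57 mice only C572 exceeded the narrow range of the WT mice by more than 1 unit (4.86 ± 3.75 against 2.44 ± 0.152, SD, n = 3 each). Mice of both OF1 groups had higher ratios than every C57 WT mouse. The ratio was composed with the values of these genes known, so no test was run on it.

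**Figure D3:**
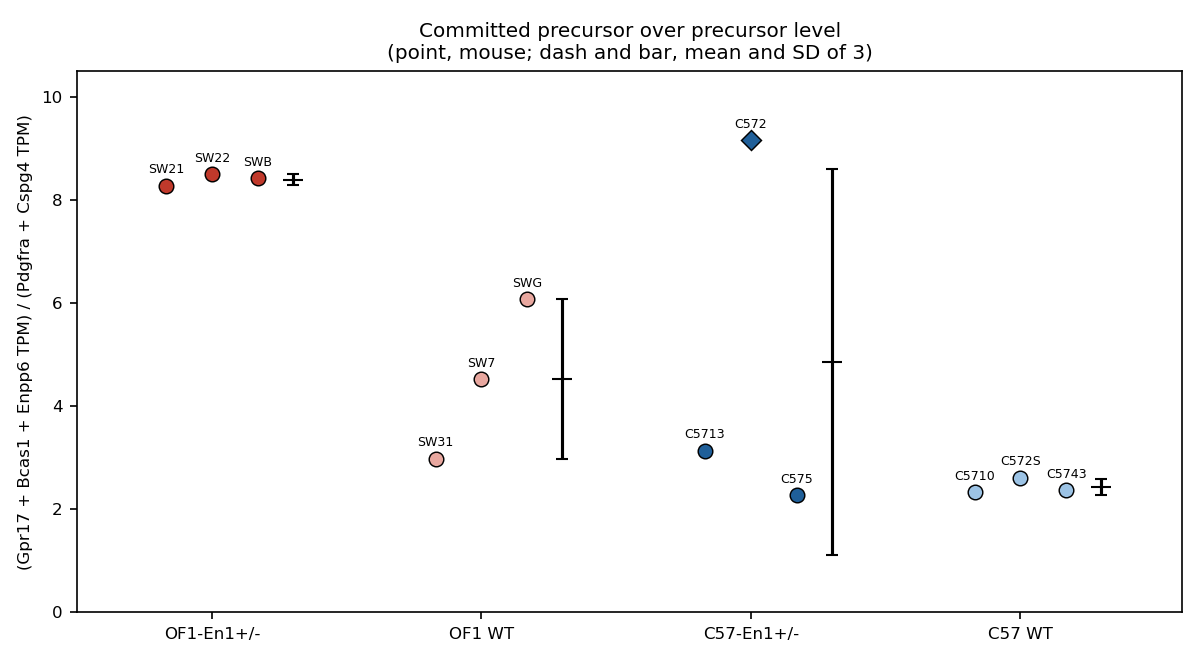
Summed TPM of Gpr17, Bcas1 and Enpp6 over summed TPM of Pdgfra and Cspg4 (vertical axis, a ratio) in each mouse by group; dash and bar are the mean and SD of 3 mice and the diamond is C572. OF1-En1+/- mice lie between 8.28 and 8.50, OF1 WT mice between 2.98 and 6.08, C57-En1+/- mice at 2.27, 3.14 and 9.16, and C57 WT mice between 2.33 and 2.61.

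Over the 12 libraries the log2 expression of Gpr17, Bcas1 and Enpp6 was correlated with a Pearson r of 0.78 (Gpr17 and Bcas1), 0.78 (Gpr17 and Enpp6) and 0.77 (Bcas1 and Enpp6). Olig1 and its neighbour Olig2 had 0.83. No other pair of the 10 genes was above 0.57, the value of Olig1 and Nkx2-2. Pdgfra had 0.36 with Cspg4, 0.39 with Gpr17, -0.03 with Bcas1 and -0.02 with Enpp6. Cspg4 had 0.39 with Gpr17, 0.17 with Bcas1 and 0.33 with Enpp6, so both precursor genes had as high a value with Gpr17 as with each other. C1ql1 had between -0.18 and 0.23 with every other gene. These are descriptions over libraries that share groups, strain and tissue makeup.

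**Figure D4:**
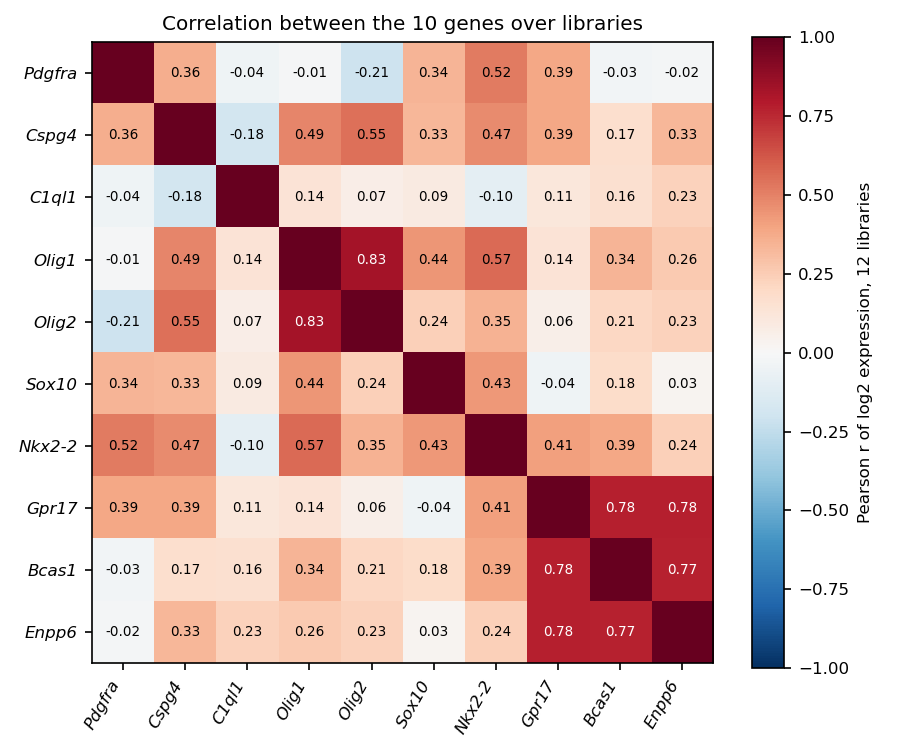
Pearson r of log2 expression between each pair of the 10 genes over 12 libraries (colour and number, from -1 to 1). Gpr17, Bcas1 and Enpp6 form a block with values of 0.77 and 0.78, Olig1 and Olig2 a pair with 0.83, and the other values are between -0.21 and 0.57.

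The mean standardized log2 expression of the 10 genes was highest in C572 (1.02) and lowest in SWG (-0.90) and C5743 (-0.87). Of 13141 protein-coding genes with a mean count of at least 50, those most like it over the 12 libraries were Abtb2, Cpt2 and Ttc39a (Pearson r = 0.93 each), Lhfpl2 (0.92), Josd2, Pllp and Serpinb9 (0.90 each) and Laptm4b (0.89). Pllp encodes plasmolipin, a protein of myelin, and Cpt2 a mitochondrial enzyme of fatty acid oxidation.

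Of 15 other tested genes of committed precursors and new oligodendrocytes, 10 had a positive log2 fold change in OF1-En1+/- against OF1 WT mice (median 0.72). Without overlap 7 of 15 were higher, beside 7.68% of all genes, and 1 was lower, beside 8.04%, and neither edgeR nor DESeq2 called any. Their summed count was 29453 to 30566 in OF1-En1+/- mice, against 24454 to 25716 in OF1 WT mice. It was 20897 to 32350.5 in C57-En1+/- mice, with C572 at the top, against 20689 to 24419.9 in C57 WT mice. Over both strains edgeR called none and DESeq2 called 3 higher, beside 1.33% of all genes. These were 9630013A20Rik (DESeq2 log2 fold change 1.85 ± 0.539), Arpc1b (1.20 ± 0.346), a subunit of the Arp2/3 complex, and Lims2 (1.04 ± 0.302), an adaptor of focal adhesions. Their DESeq2 adjusted p lay between 0.0442 and 0.0478, and their edgeR adjusted p was 0.330 to 0.350. Without C572, DESeq2 called none of the 3, with 1.18 ± 0.488 for 9630013A20Rik (DESeq2 adjusted p = 0.335), 0.70 ± 0.228 for Arpc1b (0.148) and 0.84 ± 0.301 for Lims2 (0.207). Without SW22 and C572S it called 9630013A20Rik alone (2.53 ± 0.544, DESeq2 adjusted p = 0.00103), against 0.0810 for Arpc1b and 0.106 for Lims2. Arpc1b had 1029, 3709 and 834 in C57-En1+/- mice, against 623, 667 and 584 in C57 WT mice. 9630013A20Rik had 1160.2, 509 and 889 in OF1-En1+/- mice, against 304, 92.4 and 111 in OF1 WT mice, and 212, 957 and 134 in C57-En1+/- mice, against 95.4, 372 and 71.8 in C57 WT mice. As with Enpp6, C572 and C572S held the high values in the C57 groups. Casr changed in opposite directions, by 4.66 ± 1.66 in OF1 and -2.61 ± 1.40 in C57 mice (edgeR adjusted p = 0.476 and 0.625). DESeq2 called it lower in OF1 WT than in C57 WT mice (-5.62 ± 1.45, DESeq2 adjusted p = 0.00590), beside 2.53% of all genes. That call was lost without SW22 and C572S (DESeq2 adjusted p = 0.600). Without C572, DESeq2 called its interaction (8.48 ± 2.07, DESeq2 adjusted p = 0.0323), against 0.0698 with all libraries.

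Of 18 other genes of oligodendrocyte precursors, 11 had a positive fold change in OF1-En1+/- against OF1 WT mice (median 0.16), edgeR called none and DESeq2 called Lrp1 lower, beside 1.12% of all genes called in either direction. Lrp1, a lipoprotein receptor that neurons also express, had 3973, 4216 and 3080.3 in OF1-En1+/- mice, against 8058, 5550.0 and 9418 in OF1 WT mice. Its log2 fold change was -1.01 ± 0.277 with DESeq2 (DESeq2 adjusted p = 0.0317) and -1.03 ± 0.264 with edgeR (edgeR adjusted p = 0.447). Neu4, a sialidase, had 1127, 1088 and 925 in OF1-En1+/- mice, against 278, 659 and 471 in OF1 WT mice (1.15 ± 0.424, edgeR adjusted p = 0.482). Their summed count did not separate the genotypes, with 46616 to 61069.7 in OF1-En1+/- mice, against 51999 to 54683 in OF1 WT mice. Between strains, over both genotypes, 5 of the 18 were positive and 13 negative (median -0.21), and DESeq2 called 3 and edgeR none, beside 3.62% and 2.00% of all genes. Matn4, a matrix protein, was higher in OF1 than in C57 mice (edgeR estimate 1.64 ± 0.391, DESeq2 adjusted p = 0.000981, edgeR adjusted p = 0.0577), and so was Neu4 (edgeR estimate 1.16 ± 0.300, DESeq2 adjusted p = 0.00674, edgeR adjusted p = 0.0877). Tmem100, a transmembrane protein, was lower in OF1 mice (DESeq2 estimate -0.78 ± 0.229, DESeq2 adjusted p = 0.0196, edgeR adjusted p = 0.0843). Without C572, edgeR called Neu4 (1.41 ± 0.288, edgeR adjusted p = 0.0313) and DESeq2 no longer called Tmem100 (-0.69 ± 0.240, DESeq2 adjusted p = 0.0834). Without SW22 and C572S, DESeq2 called Matn4 and Neu4 (DESeq2 adjusted p = 0.0340 and 0.0305) but not Tmem100 (0.0558).

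Of 18 other transcription factors of the lineage, 10 had a positive fold change in OF1-En1+/- against OF1 WT mice and 14 in C57-En1+/- against C57 WT mice (medians 0.20 and 0.68, the second 0.34 over 17 tested genes without C572), and neither edgeR nor DESeq2 called any within a strain. Myrf, the activator of myelin genes, had 202, 205 and 182 in OF1-En1+/- mice, against 123, 136 and 85.5 in OF1 WT mice (0.78 ± 0.468, edgeR adjusted p = 0.643). Tcf7l2, a Wnt effector of new oligodendrocytes that thalamic and pretectal neurons also express strongly, had 468, 18074 and 22514 in OF1-En1+/- mice, against 146, 955 and 235 in OF1 WT mice, and 610.3, 458 and 17409.9 in C57-En1+/- mice, against 2219, 1176 and 249.6 in C57 WT mice. DESeq2 called it over both strains (3.65 ± 1.05, DESeq2 adjusted p = 0.0440), with 3 of 6 hemizygous mice above all WT mice by far. The edgeR estimate was 3.64 ± 1.20 (edgeR adjusted p = 0.360). Without C572, DESeq2 gave 3.92 ± 1.06 (DESeq2 adjusted p = 0.0488) and also called it in OF1 mice alone (4.94 ± 1.41, DESeq2 adjusted p = 0.0346), and without SW22 and C572S DESeq2 gave 3.51 ± 1.30 and no adjusted p. The PDGF ligands and Pdgfrb held 1 positive and 4 negative fold changes in OF1 mice (median -0.20), and neither tool called any in either strain. Pdgfa, the ligand of the precursor receptor, had 523, 1116 and 948 in OF1-En1+/- mice, against 687, 1789 and 1019 in OF1 WT mice (-0.44 ± 0.359).

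The summed count of genes of myelin and mature oligodendrocytes was high in the same libraries, although the genes did not all move together. The summed count of 18 genes of myelin and mature oligodendrocytes was 120504, 60125 and 63976 in OF1-En1+/- mice, against 50767, 45404 and 26218 in OF1 WT mice, and 25885, 213589.7 and 15992 in C57-En1+/- mice, against 20864, 42371 and 19935 in C57 WT mice. Of the 18, 12 had a positive and 6 a negative fold change in OF1 mice (median 0.26), and 16 a positive one in C57 mice (median 2.04). Without overlap 4 and 0 were higher, beside 7.68% and 6.20% of all genes. In OF1 mice 1 was lower and in C57 mice 0, beside 8.04% and 8.08%, and neither tool called any. Without C572, 4 of the 18 were positive and 14 negative in C57 mice (median -0.50), so the direction there was that of this library. By the summed count the OF1-En1+/- mice were again above the OF1 WT mice, and C572 was highest of all. Mbp, for myelin basic protein, had 63869, 26085 and 31194 in OF1-En1+/- mice, against 18896, 16584 and 9299.6 in OF1 WT mice (1.44 ± 0.935, edgeR adjusted p = 0.673). All 13 genes of cell division were positive in OF1-En1+/- against OF1 WT mice (median 1.06), 7 of 13 without overlap beside 7.68% of all genes, with a sum of 5320.2 to 6872 against 3169 to 4693, and neither tool called any. In C57 mice 11 of the 13 were positive (median 0.21), with overlapping sums of 6674 to 9038 in hemizygous and 5016 to 7421 in WT mice. The OF1 WT sums were thus below those of every other group. In OF1 WT against C57 WT mice 12 of the 13 were negative (median -1.16), 6 of them without overlap, beside 8.57% of all genes, and neither tool called any. C5743, with the lowest sum of Gpr17, Bcas1 and Enpp6 (3061), had 7421, above all OF1-En1+/- mice.

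The 8 markers of subthalamic and hypothalamic neurons, which lie near the SNpc, went the opposite way to the summed count of myelin genes in OF1 mice. Their summed count was 3223, 20144 and 15321 in OF1-En1+/- mice, against 115081, 33773 and 126419 in OF1 WT mice. It was 41748, 5981 and 33091 in C57-En1+/- mice, against 37476, 13484 and 114582 in C57 WT mice. All 8 had a negative fold change in OF1 mice (median -3.38, and -6.76 without SW22 and C572S). Without overlap 4 of 8 were lower, beside 8.04% of all genes, and DESeq2 called 3 and edgeR none, beside 1.12% and 0%. Among C57 mice, C572 and C572S, with the highest Bcas1 and Enpp6, had the lowest of these sums. No marker of the list was at 0 in a whole group. Endothelial markers summed to 7309 to 11822 in OF1-En1+/- mice, against 4860.1 to 7869 in OF1 WT mice, and to 8176 to 12953 in C57-En1+/- mice, against 5324 to 7975 in C57 WT mice. These overlapped in OF1 and not in C57 mice, and 7 and 8 of the 8 fold changes were positive (medians 0.58 and 0.52). Astrocyte markers summed to 65354 to 133375 in OF1-En1+/- mice, against 66565 to 91905 in OF1 WT mice, and to 70577 to 141303 in C57-En1+/- mice, against 64956 to 74564 in C57 WT mice, with overlap in both strains. Markers of dopaminergic neurons (8 genes) summed to 2745 to 394064 in OF1-En1+/- mice, against 1687 to 3583 in OF1 WT mice. In C57 mice they summed to 1430.0 to 13346 in hemizygous and 3707 to 626720.3 in WT mice. All 8 fold changes were positive in OF1 and negative in C57 mice (medians 5.25 and -5.00), and neither tool called any. SW22 held 394064, against 2745 and 5528 in the other OF1-En1+/- mice, and C572S held 626720.3, against 3707 and 6767 in the other C57 WT mice. In these groups the mean sum thus rested on 1 library. The part of these cell markers in the levels of Gpr17, Bcas1 and Enpp6 was not tested.

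**Figure D5:**
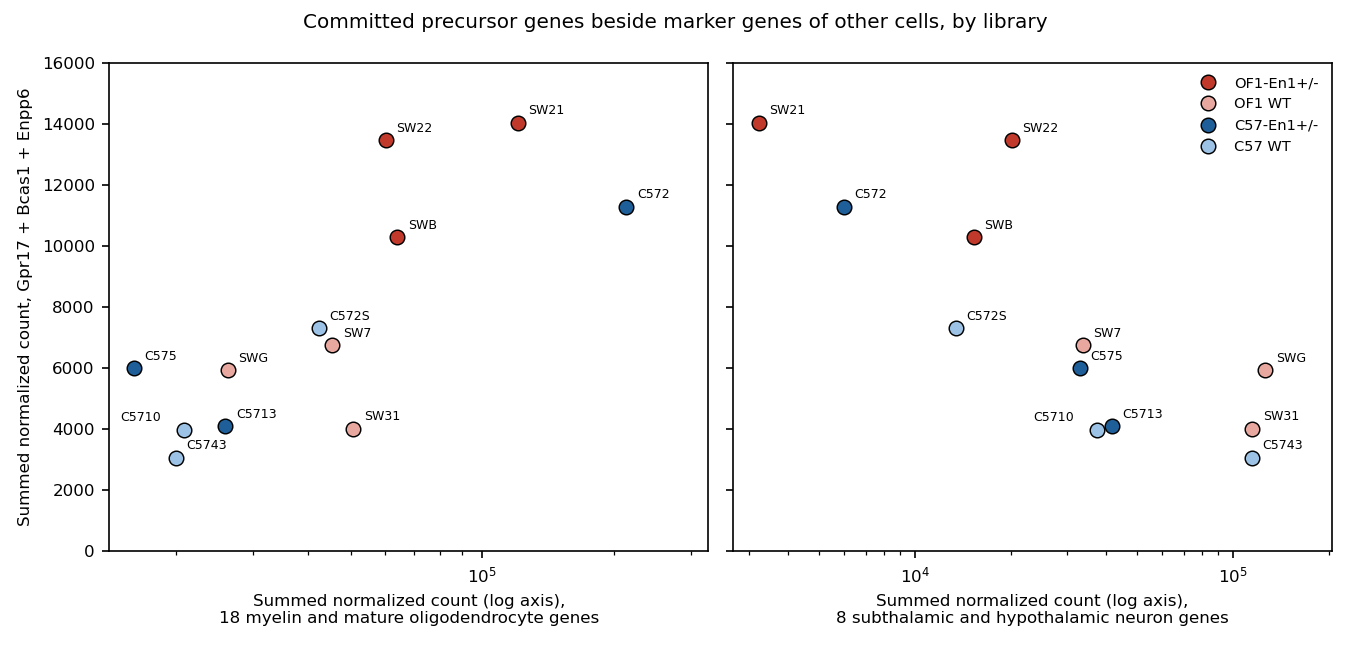
Summed normalized count of Gpr17, Bcas1 and Enpp6 (vertical axis) against the summed count of 18 myelin and mature oligodendrocyte genes (left, log axis) and of 8 subthalamic and hypothalamic neuron genes (right, log axis); a point is a mouse. SW21, SW22, SWB and C572 lie highest, with 10279.9 to 14045, and have the highest myelin sums (60125 to 213589.7), while their subthalamic sums (3223 to 20144) are below those of every other library except C572S (13484).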

How the data were processed

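RNA of laser-microdissected SNpc from 12 mice was analysed. Salmon was run by the authors against GRCm39 transcripts, and the deposited values are estimated counts of reads and TPM per transcript of each library. SMART-Seq and Nextera XT libraries do not record strand, and Salmon divides reads among overlapping models.

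Of 140790 transcripts, 139555 (99.1%) were matched by identifier to GENCODE genes. Estimated counts were summed per gene, rounded and tested with edgeR 4.0.16 (R 4.3.3), with TMM factors, the robust quasi-likelihood test and 1 mean per group over 12 libraries, for the 18017 genes that averaged a normalized count of 10 or more. Normalized counts were scaled to the geometric mean of the effective library sizes. Adjusted p are Benjamini-Hochberg over all genes tested, with a threshold of 0.05. The method of the study, DESeq2 (1.42.0 here), was an alternative. Log2 expression for correlations used a prior count of 2. Counts within a group differed beyond sampling noise (chi-square per degree of freedom 31.6 to 498.0 in 12 pairs), and none was taken as a repeat. That the mice are separate animals comes from the labels.

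The 10 genes and all lists were chosen with earlier results of these data known. All 10 are described. Of each other list, genes are named from the up to 4 with the smallest p in any comparison and those called, and 8 protein-coding genes are named for their likeness to the 10. Genes used to check the labels are named besides. Sequences are from RefSeq, GRCm38.p6. Bcas1, C1ql1, Gpr17, Olig1 and Sox10 had no promoter shown. Tables and figures used Python 3.11.15, pandas 2.3.3, numpy 2.4.6 and matplotlib 3.10.9. Alternatives were RLE factors, all genes without the count filter, transcript length offsets, library sizes without mitochondrial genes, limma 3.58.1 voom with quality weights, a fit on the compared libraries, and leaving out each library or SW22 and C572S. DESeq2 without C572, or without SW22 and C572S, was added after seeing the data. The scripts were tested on simulated data.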

Additional observations from a re-analysis of the deposited data

How the results depend on the processing

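No paired analysis was possible because the labels give no replicate numbers shared between groups. The counts of positive and negative fold changes above include estimates smaller than their standard error. For changes of sign, main estimates larger than their standard error were counted apart. Of 1510 estimates of the 10 genes under alternatives, 713 belonged to such a main estimate and 8 of these changed sign, while 100 of the 797 others did. C1ql1 in OF1-En1+/- against C57-En1+/- mice, at -1.31, was 0.04 with limma voom and quality weights, 0.72 with DESeq2 without C572 and 0.71 with edgeR without it, and its interaction was 0.00 without C572, with ranges of -1.84 to 0.71 and -2.54 to 0.00 when 1 library was left out. The Gpr17 interaction was -0.05 without SW22 and C572S and -0.08 with DESeq2 without them. Enpp6 in C57-En1+/- against C57 WT mice was -0.40 with DESeq2 and -0.42 with edgeR without C572, and lay between -0.42 and 2.19 with 1 library left out. Of the 7 calls gained, 5 rested on leaving out C572 or SW22 and C572S with DESeq2, 1 on DESeq2 alone and 1 on edgeR without C572.

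The number of genes called by edgeR depended on the tool. In OF1-En1+/- against OF1 WT mice it was 0, with 202 by DESeq2, 280 by DESeq2 without C572, 360 by DESeq2 without SW22 and C572S, 1 without these in edgeR, and 0 to 3 with 1 library left out. In C57-En1+/- against C57 WT mice it was 0, with 74, 11 and 40 by the 3 DESeq2 fits and 0 to 1 with 1 library left out. In OF1 WT against C57 WT mice it was 185, with 456, 498 and 328 by those fits, 114 in a fit on the compared libraries, 106 without SW22 and C572S and 127 to 188 with 1 left out. In OF1-En1+/- against C57-En1+/- mice it was 167, with 444, 436 and 435, then 109, 108 and 108 to 179. Over both strains, En1+/- against WT gave 0, with 240, 79 and 513, then 1 without SW22 and C572S and 0 to 1 with 1 left out. OF1 against C57 over both genotypes gave 360, with 653 by DESeq2, 687 without C572 and 286 to 337 with 1 left out. The interaction gave 0, with 42, 29 and 34, and 0 to 1 with 1 left out. The count by DESeq2 without SW22 and C572S is not reported here for OF1 against C57 over both genotypes. All 20 ratios of group means of the 10 genes moved by less than 1 SD between normalized counts and TPM. C1ql1 had as few as 12 estimated reads in a library, which limits what can be said of it.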
